A study of Mus musculus with 13 samples.

Results

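The nuclear genes of the mitochondrial respiratory chain were examined in mouse marrow progenitors that lack Tifab, miR-146a or both. The genes were chosen by symbol, as subunit genes of complex I (Nduf a, b, c, s and v series), complex II (Sdha to Sdhd), complex III (Uqcr), complex IV (Cox4 to Cox8) and the ATP synthase, or complex V (Atp5), without pseudogenes and without the Ndufaf assembly factors. Of 84 such symbols among 24062 rows, 77 had a mean of at least 0 log2 CPM over the 13 libraries and were taken, 35 of complex I, 4 of complex II, 8 of complex III, 13 of complex IV and 17 of complex V. CPM is reads per 1 M reads of the library, and all levels are on its log2 scale unless stated.

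The respiratory chain passes electrons from NADH (complex I) and succinate (complex II) through coenzyme Q to complex III, cytochrome c and complex IV, which reduces oxygen. Complexes I, III and IV pump protons across the inner mitochondrial membrane, and complex V makes ATP from the gradient. Most subunits are encoded in the nucleus, and their genes are often described as regulated together through the factors NRF1, GABP (an ETS factor) and YY1. Blood stem cells are known for low respiration, and committed progenitors for a rise in it.

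The cells were LK marrow cells, sorted as c-kit-positive without lineage markers or Sca-1, a fraction of committed progenitors. All came from Boy/J recipients that were lethally irradiated (7.0 Gy and 4.75 Gy, 3 h apart). The recipients were given marrow of 1 of 4 germline genotypes, with mouse ages given as 2 to 5 months. WT (TIFAB+/+;miR-146a+/+, 3 libraries) was compared with TIFAB_KO (TIFAB-/-;miR-146a+/+, 3), miR-146a_KO (TIFAB+/+;miR-146a-/-, 3) and dKO (both genes deleted, 4). The labels state 3 mice per group, so 1 of the 4 dKO libraries is not accounted for by that number, and they name no sort for donor cells within the LK gate. Deletion was not restricted to a cell type. The labels name no batch or date.

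Libraries held 7.83 to 12.8 M reads. The targeted gene Tifab had 386 to 485 reads in WT and 504 to 746 in miR-146a_KO, against 75 to 164 in TIFAB_KO and 28 to 129 in dKO. The miR-146a row had 0 reads in all 13 libraries, so its deletion could not be checked on these values. Kit, which defines the gate, lay at 8.08 to 8.84 in every library, and Ly6a (Sca-1), which the gate leaves out, at -0.61 to 2.42. TIFAB_KO replicate 3 stood apart: 45 of the 77 genes had their highest value in it, and 45S pre-rRNA took 10.7% of its reads, against 3.85 to 9.09% in the other libraries. The medians for each loss are given with and without it. In such bulk values, fewer cells of a type and less RNA per cell cannot be told apart.

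Because 1 deletion removes a microRNA, the sequence by which it reads messages is given first, with the places where it matches these genes. The mature miR-146a-5p lies at chr11:43374435-43374456 on the minus strand of GRCm38.p6 (RefSeq), and its seed, bases 2 to 8, is in capitals.
miR-146a-5p: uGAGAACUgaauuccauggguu
The complement of the seed, AGTTCTC as DNA, occurs in the annotated 3′ UTRs (GENCODE M21) of 5 of the 77 genes (6.49%), against 13.9% of the 10842 tested genes with such a UTR. The 5 matches are printed 5′ to 3′ on the message strand, with the letters that pair with the seed in capitals.
Cox7a2l: ctgtgtcaggAGTTCTCcttta
Ndufb8: aacagtctaaAGTTCTCagatt
Sdhd: caatttagggAGTTCTCcttgt
Uqcrh: tgatggagtgAGTTCTCgagaa
Uqcrq: tagtactaaaAGTTCTCagaag
In Ndufb8 and Uqcrq the match is followed by an A, the longer form of a seed match. A match is a stretch of letters and no measured site.

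Promoters, taken as 250 bases before to 50 after the start (RefSeq, GRCm38.p6), were found for 65 of the 77 genes and 9532 of the 11867 genes tested, and a gene with several starts was counted where any of them held the letters. The NRF1 core GCGCATGC, searched on both strands, was in 10 of the 65 (15.4%) and in 6.14% of all. The YY1 core AAGATGGC was in 11 (16.9%) and in 5.51% of all, 7 of these in complex I and 4 in complex V. The GABP letters CCGGAAG were in 16 (24.6%) and in 20.98% of all. Uqcr11, a small complex III subunit with a low value in the comparison below, holds both NRF1 and GABP letters, and Atp5h, the d subunit of the ATP synthase stalk, the GABP letters alone. Both promoters are printed along the gene, with matches on either strand in capitals, Uqcr11 from chr10:80406772-80407071 and Atp5h from chr11:115419870-115420169, minus strand.
Uqcr11: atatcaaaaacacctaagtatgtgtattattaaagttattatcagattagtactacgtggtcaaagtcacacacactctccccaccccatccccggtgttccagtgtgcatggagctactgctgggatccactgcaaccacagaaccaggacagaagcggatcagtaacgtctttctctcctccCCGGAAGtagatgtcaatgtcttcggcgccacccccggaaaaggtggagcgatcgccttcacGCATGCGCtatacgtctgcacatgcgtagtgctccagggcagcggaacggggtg
Atp5h: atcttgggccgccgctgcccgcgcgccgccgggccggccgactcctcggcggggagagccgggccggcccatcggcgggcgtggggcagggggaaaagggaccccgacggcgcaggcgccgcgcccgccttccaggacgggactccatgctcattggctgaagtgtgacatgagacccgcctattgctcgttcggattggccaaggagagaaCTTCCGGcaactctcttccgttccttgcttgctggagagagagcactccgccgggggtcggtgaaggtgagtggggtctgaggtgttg

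The chain was strongly expressed, and the levels of its genes spread widely. Compared per length (log2 CPM per kb of the longest GENCODE transcript), complex medians were 5.27 for I, 5.96 for II, 5.97 for III, 6.59 for IV and 6.66 for V. Atp5b, the catalytic beta subunit of ATP synthase, was highest at 10.44, followed by Cox8a (9.003), Cox6a1 (7.99) and Atp5a1, the alpha subunit (7.95). In complex II the flavoprotein gene Sdha had 7.26 and the membrane anchor Sdhc 4.44. The lowest of the 77 was Cox6a2, a form typical of heart and skeletal muscle, at 1.25.

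**Figure D1:**
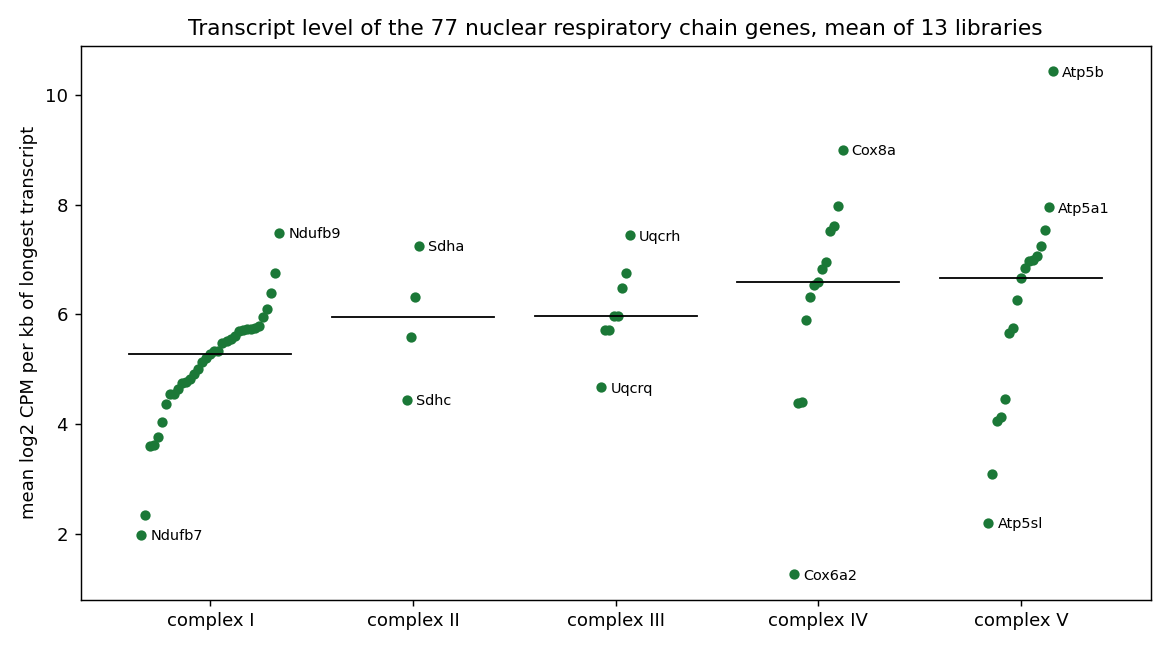
Mean level of each gene over 13 libraries (y axis, log2 CPM per kb of longest transcript) by complex (x axis); points are genes, black lines the complex medians. Atp5b at 10.44 is the highest point and Cox6a2 at 1.25 the lowest.

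Complex IV has genes with tissue-specific copies, and in LK cells 1 copy of each pair carried nearly all reads. Cox4i1 had 9739 reads over the 13 libraries and its hypoxia- and lung-linked copy Cox4i2 had 39. Cox6a1 had 20706 and Cox6a2 224. Cox7a2 had 5282 and the muscle form Cox7a1 67. Cox8a had 36736, against 9 for Cox8b and 3 for Cox8c. The exception was Cox6b2, a form known from testis, with 1658 reads against 10075 for Cox6b1. Ndufa4, now counted as a complex IV subunit, had 17846 reads and its copy Ndufa4l2 had 2. The 7 symbols below the threshold were Cox4i2, Cox7a1, Cox7b2, Cox8b, Cox8c, Ndufa4l2 and Ndufs5. Nearest to the threshold were Cox6a2, inside at a mean of 0.70 log2 CPM, and Cox7a1, outside at -1.18. Ndufs5, a complex I subunit, was at 0 reads in all 13 libraries, and BC002163, a near-identical copy (99.4% over 319 bases), had 5 to 17 reads per library. Whether Ndufs5 reads were left out because they match both genes was not tested, so 0 reads need not mean no expression.

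Levels were steady between replicates for most genes, with a median SD within groups of 0.29. Cox5b, a zinc-binding complex IV subunit, and Ndufs1, the largest complex I subunit, varied least (SD 0.14 and 0.15), and Cox4i1 and Cox6a2 most (0.65 each). Of the 77 genes, 28 share at least 100 bases at 97% identity or more with another annotated gene, 12 of them with a pseudogene. Their counts may hold reads of the copy or lack reads that match both genes, and are uncertain to that extent. Medians with and without such a copy were alike in the averaged miR-146a comparison below (-0.23 and -0.24).

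**Figure D2:**
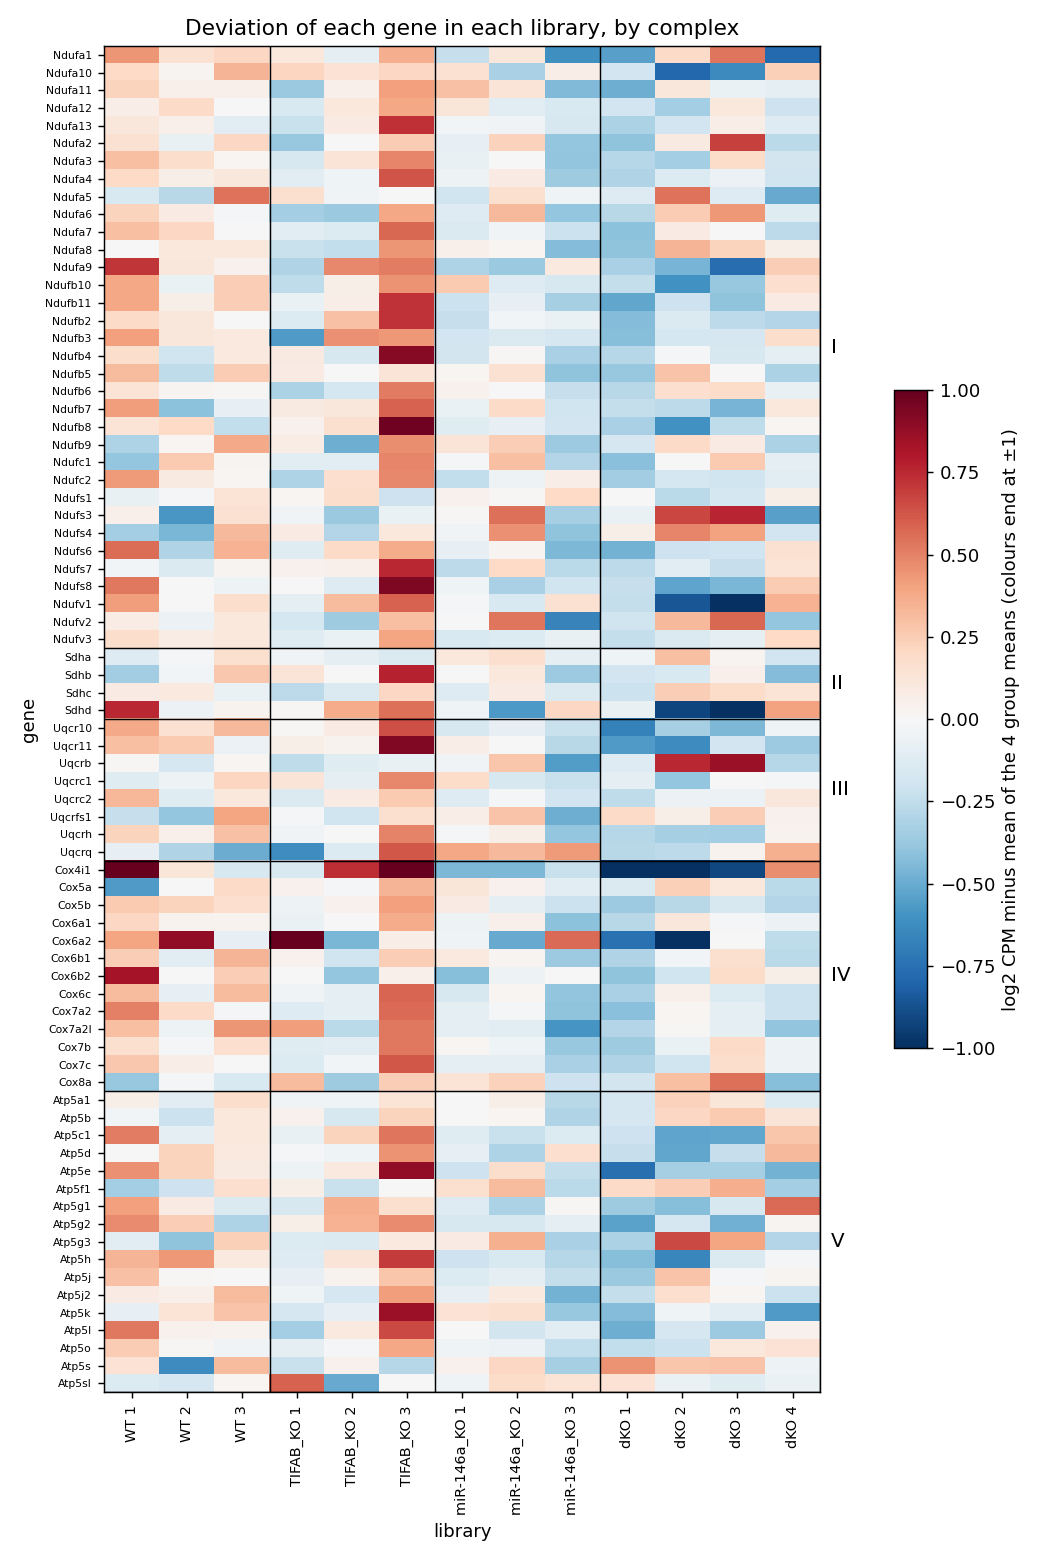
Deviation of 76 of the 77 genes (rows, grouped by complex I to V) in each of the 13 libraries (columns), as log2 CPM minus the mean of the 4 group means; red is higher, blue lower. TIFAB_KO 3 is red across most rows, and most rows of the 7 libraries without miR-146a are pale or blue.

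The genes together took 0.981 ± 0.0679% of reads in WT (SD, n = 3), 1.02 ± 0.155% in TIFAB_KO (n = 3), 0.899 ± 0.0841% in miR-146a_KO (n = 3) and 0.935 ± 0.0838% in dKO (n = 4). The groups overlapped. On the log2 scale, where each gene counts alike, the mean deviation of all 77 from their means over the 13 libraries was 0.20, 0.01 and 0.12 in the WT replicates and -0.05, -0.01 and 0.44 in TIFAB_KO. For miR-146a_KO the replicates had -0.04, 0.03 and -0.21, and for dKO -0.28, -0.10, -0.04 and -0.06. Libraries without miR-146a lay mostly below the others, but miR-146a_KO replicate 2 lay above WT replicate 2 and above TIFAB_KO replicates 1 and 2, and miR-146a_KO replicate 1 and dKO replicate 3 lay just above TIFAB_KO replicate 1.

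The study asked whether loss of Tifab and of miR-146a act together, so the effect of each loss was taken over both states of the other gene, beside the single comparisons. Loss of miR-146a went with lower values for most of the chain. Its median over the 77 genes was -0.24 on the log2 scale, against 0.09 over all 11867 tested genes, and 61 of 77 values lay below 0 (4436 of all tested genes). No gene passed at a limma adjusted p under 0.05, where 0.733% of all tested genes did. At an unadjusted p under 0.05, 27 of 77 were lower and 0 higher, against 6.37% lower and 16.8% higher of all tested genes.

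That count of 0 changed when single libraries were left out. Without dKO replicate 4, 14 of 77 genes (18.2%) passed, as did 8.76% of all tested genes. Leaving out TIFAB_KO replicate 2 gave 7 (9.09%, against 6.76% of all tested genes). Leaving out TIFAB_KO replicate 1 gave 4 (5.19%, against 1.78%) and WT replicate 3 gave 2 (2.6%, against 1.74%). The median was -0.15 without TIFAB_KO replicate 3 and -0.15 with total reads as a covariate. Libraries without miR-146a held 7.83 to 11.7 M reads and the others 8.38 to 12.8 M. The part of depth in the result was not tested otherwise. 45S pre-rRNA took 6.98 ± 2.51% of reads in WT and 8.13 ± 2.27% in TIFAB_KO (SD). In miR-146a_KO it took 5.53 ± 1.58% and in dKO 5.46 ± 1.11%. No value given here sets that share apart from the loss of miR-146a.

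By complex, the medians for miR-146a loss were -0.24 for I, -0.12 for II, -0.18 for III, -0.26 for IV and -0.22 for V. Without TIFAB_KO replicate 3 they were -0.16, -0.04, -0.12, -0.21 and -0.13 in the same order, 56 of 77 genes lay below 0 and 0 passed, against 14 of all tested genes. Of the genes named below with a value beyond 0.1 in size, 6 were smaller by over 1.5 times without that library: Sdhb had -0.15, Ndufs7 -0.11, Ndufa4 -0.16, Cox6a1 -0.13, Uqcrc1 -0.11 and Ndufb8 -0.28. Loss of Tifab gave -0.02, -0.02, -0.03, -0.01 and 0.00, with a median of -0.01 over the 77 genes and -0.01 over all tested genes. In that comparison 40 of 77 were below 0 and no gene passed in limma, where 0.0169% of tested genes did. At an unadjusted p under 0.05 there were 0 of 77 in either direction, against 2.46% of tested genes. Without TIFAB_KO replicate 3 the Tifab medians were -0.09 for I, -0.05 for II, -0.10 for III, -0.11 for IV and -0.04 for V.

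**Figure D3:**
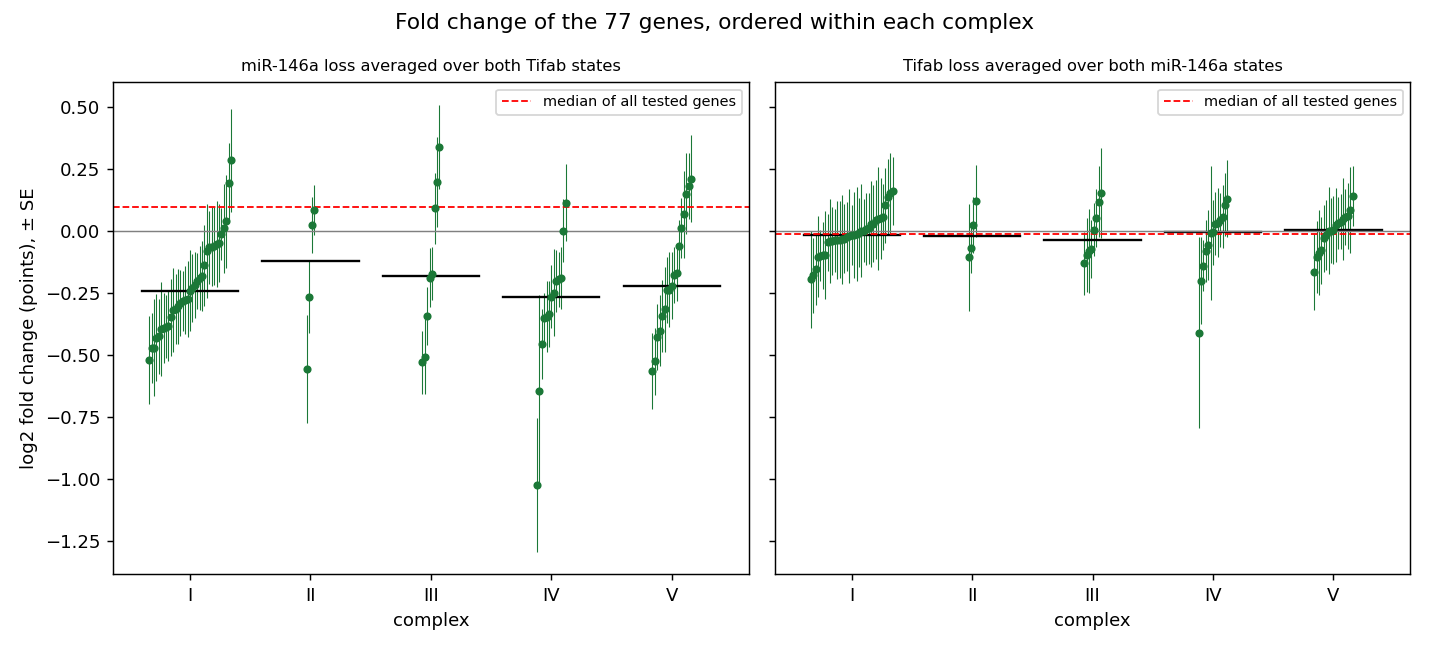
Log2 fold change of each gene (points, with SE from limma) by complex for loss of miR-146a (left) and loss of Tifab (right), each averaged over both states of the other gene; black lines are complex medians, the red dashed line the median of all tested genes. On the left 61 of 77 points lie below 0, on the right 40.

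In complex III the lowest value was that of Uqcr10, a small subunit beside the cytochrome parts of the complex (chr11:4701973-4704342). Its log2 CPM was 6.19, 5.96 and 6.13 in WT, with TIFAB_KO at 5.83, 5.89 and 6.46, miR-146a_KO at 5.66, 5.73 and 5.59 and dKO at 5.14, 5.48, 5.36 and 5.77. Uqcr10 was the only one of the 77 whose 7 libraries without miR-146a all lay below the 6 with it, which held for 0.506% of tested genes. The log2 fold change was -0.53 ± 0.13 (SE, limma adjusted p = 0.056), and the adjusted p ran from 0.0135 without dKO replicate 4 to 0.251 with total reads as a covariate.

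Uqcr11 followed at -0.51 ± 0.15 (limma adjusted p = 0.0802; -0.36 without TIFAB_KO replicate 3), and Uqcrh, the hinge protein that helps cytochrome c bind, at -0.34 ± 0.12. The core subunits Uqcrc1 and Uqcrc2 had -0.19 and -0.17. The Rieske iron-sulfur protein gene Uqcrfs1 had 0.09 and Uqcrb 0.20.

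Uqcrq, a further small subunit of complex III, had the highest value of the 77 for miR-146a loss, 0.34 ± 0.17 (limma adjusted p = 0.234). Its log2 CPM was 5.20, 4.98 and 4.78 in WT, with TIFAB_KO at 4.66, 5.14 and 5.90, miR-146a_KO at 5.66, 5.60 and 5.71 and dKO at 5.00, 5.02, 5.32 and 5.64. All 3 miR-146a_KO libraries lay above WT, by 0.67 ± 0.25 (limma adjusted p = 0.475), and Uqcrq was the single gene of the 77 in that position, against 15.5% of tested genes. Uqcrq lies at chr11:53427922-53430831, 10.1 Mb from the miR-146a gene, and holds 1 of the longer seed matches printed above.

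Lyrm7, an assembly factor that holds the Rieske protein before insertion into complex III, lies 11.5 Mb from the miR-146a gene and was the only gene of the mitochondrial lists that passed. WT had 1.86, 1.32 and 1.60 log2 CPM, TIFAB_KO 1.14, 2.52 and 2.33, miR-146a_KO 4.72, 4.92 and 4.41, and dKO 4.82, 4.87, 4.94 and 4.30, with no overlap. It rose by 2.91 ± 0.22 with miR-146a loss (limma adjusted p = 3.37e-07). Of the other 4 complex III assembly factors tested, Ttc19 had 0.48, Bcs1l 0.30, Uqcc1 0.07 and Uqcc2 -0.15, and none of these passed. Cyc1, the cytochrome c1 subunit that the symbol rule leaves out, had -0.30 ± 0.13.

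**Figure D4:**
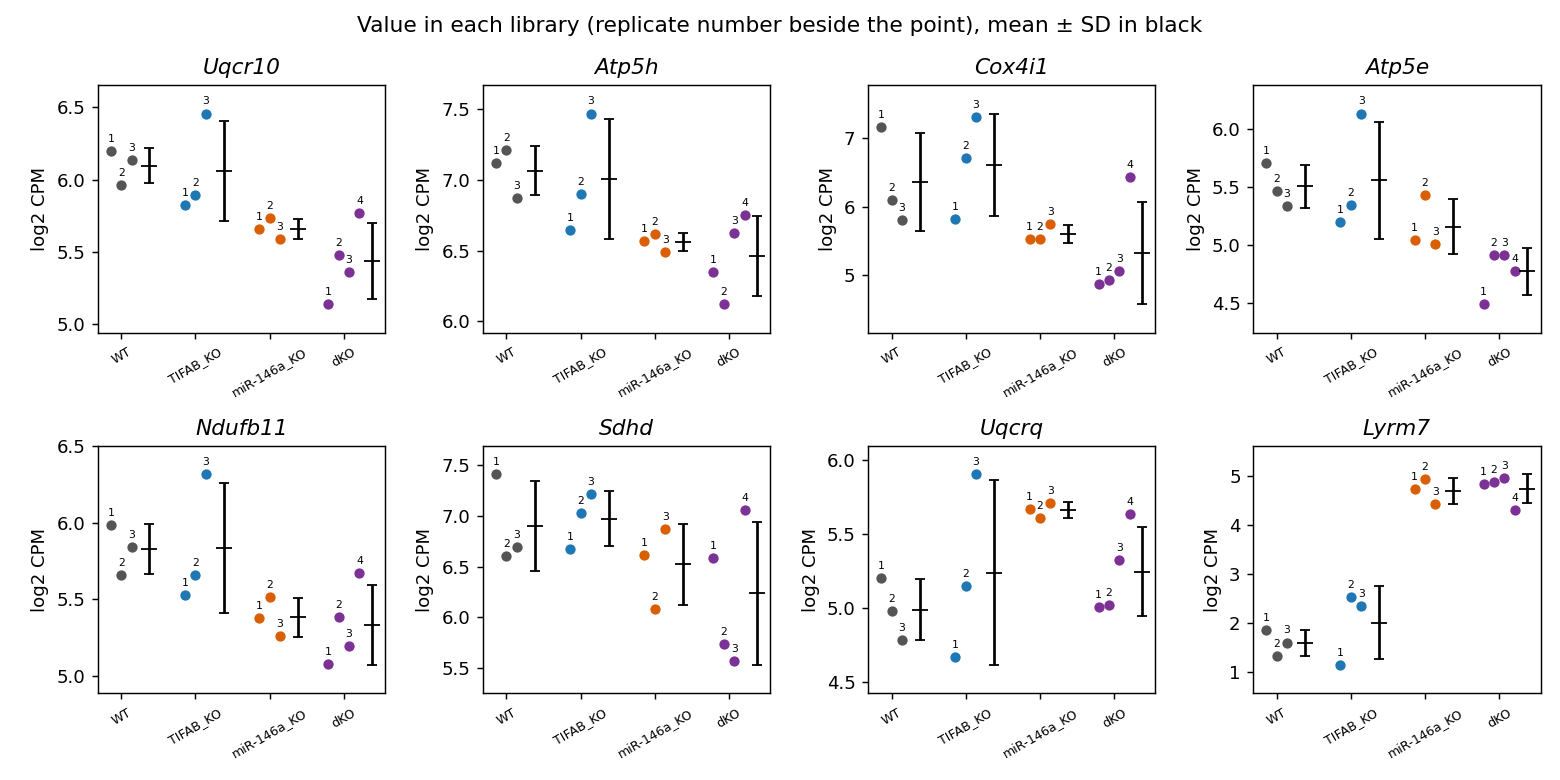
Log2 CPM (y axis) of 7 respiratory chain genes and Lyrm7 in each library, by group (x axis); numbers beside points are replicate numbers, black bars mean and SD. Uqcr10 separates the libraries by miR-146a, Cox4i1 shows dKO 4 at 6.44 above the other dKO libraries, and Lyrm7 is above 4 in every library without miR-146a.

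In complex IV 11 of 13 values for miR-146a loss lay below 0. Cox4i1, the regulatory subunit that binds ATP (chr8:120668222-120674207), had the largest difference of all 77. Its log2 CPM was 7.16, 6.10 and 5.81 in WT, with TIFAB_KO at 5.82, 6.71 and 7.31, miR-146a_KO at 5.52, 5.53 and 5.75 and dKO at 4.87, 4.93, 5.06 and 6.44. Replicates 1 to 3 of dKO were below every other library, and replicate 4 was above all miR-146a_KO libraries. The difference was -1.02 ± 0.27 (limma adjusted p = 0.0655). Without dKO replicate 4 the adjusted p was 0.00757, and with total reads as a covariate the value was -0.60 (adjusted p = 0.257).

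Cox5b was the steadier case. WT had 6.60, 6.57 and 6.51, TIFAB_KO 6.29, 6.39 and 6.75, miR-146a_KO 6.42, 6.24 and 6.12, and dKO 5.98, 6.06, 6.18 and 6.05 log2 CPM. Its difference was -0.35 ± 0.10 (limma adjusted p = 0.0788), and dKO lay below WT and TIFAB_KO without overlap. Cox7a2l, which joins complexes III and IV into supercomplexes, had -0.46 ± 0.14 (limma adjusted p = 0.0861). Cox6a1 had -0.19, Cox7a2 -0.34 and Cox5a 0.00. Cox8a, the most abundant of complex IV per length, had 0.11.

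In complex V 12 of 17 values for miR-146a loss lay below 0. Atp5h had 7.12, 7.21 and 6.87 log2 CPM in WT, with TIFAB_KO at 6.65, 6.90 and 7.47, miR-146a_KO at 6.57, 6.62 and 6.49 and dKO at 6.35, 6.12, 6.63 and 6.75. Every library without miR-146a lay below every WT library, and the difference was -0.52 ± 0.13 (limma adjusted p = 0.0624). Atp5e, the epsilon subunit of the rotor, had -0.56 ± 0.15 (limma adjusted p = 0.067), with 5.34 to 5.71 in WT and 4.49 to 4.92 in dKO, and was -0.42 without TIFAB_KO replicate 3. Atp5a1 and Atp5b, which form the catalytic ring, had -0.06 ± 0.10 and 0.01 ± 0.12.

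The 3 genes for the same c-ring protein differed: Atp5g2 had -0.43 ± 0.13, Atp5g1 -0.24 ± 0.15 and Atp5g3 0.15 ± 0.16. None of the 3 passed, and the differences between them were not tested. Atp5s and Atp5sl, which the symbol rule takes in although the latter is known as a complex I assembly factor, had 0.21 and 0.07.

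In complex I 31 of 35 values for miR-146a loss lay below 0 and 12 had an unadjusted p under 0.05. The 7 core subunits, which carry the redox centres, had a median of -0.23 and the 28 accessory subunits -0.26. Ndufb11, a membrane-arm subunit, had 5.98, 5.65 and 5.84 log2 CPM in WT, with TIFAB_KO at 5.52, 5.66 and 6.32, miR-146a_KO at 5.38, 5.51 and 5.26 and dKO at 5.07, 5.39, 5.19 and 5.67. dKO replicate 4 overlaps both groups that keep miR-146a. Its difference was -0.47 ± 0.14 (limma adjusted p = 0.0802).

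Ndufs7, which helps form the coenzyme Q site, had -0.23 ± 0.14 (limma adjusted p = 0.318). Ndufv1, the NADH-binding subunit, had -0.47 ± 0.19 and its partner Ndufv2 0.04 ± 0.19. Ndufs1 had -0.01 ± 0.10, with all 13 libraries between 6.07 and 6.54. Ndufa4 had -0.28. Ndufs3 and Ndufs4 were the highest, at 0.28 and 0.19.

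Complex II, which also serves the tricarboxylic acid cycle, had 2 genes on each side of 0. Sdhd, a membrane anchor, had 7.41, 6.60 and 6.69 log2 CPM in WT, with TIFAB_KO at 6.67, 7.03 and 7.21, miR-146a_KO at 6.61, 6.08 and 6.87 and dKO at 6.58, 5.74, 5.57 and 7.06. The groups overlapped, and the difference was -0.56 ± 0.22 (limma adjusted p = 0.141). The iron-sulfur subunit Sdhb had -0.27 ± 0.15 (-0.15 without TIFAB_KO replicate 3), Sdhc 0.03 ± 0.11 and Sdha 0.08 ± 0.10.

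Of the 5 genes with a seed match in their 3′ UTR, 4 had lower values without miR-146a, a share like the 61 of all 77. The 4 were Sdhd at -0.56, Cox7a2l at -0.46, Ndufb8 at -0.42 and Uqcrh at -0.34, and Uqcrq had 0.34. Genes with the NRF1 letters in the promoter had a median of -0.23 (10 genes) and those without -0.24 (55). With the GABP letters it was -0.29 (16) and without -0.24 (49), and with the YY1 core -0.22 (11) against -0.26 (54).

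The single comparisons against WT share the WT libraries and are given side by side. miR-146a_KO against WT had a median of -0.20 over the 77 genes (0.09 over all tested genes) with 63 below 0, and dKO against WT -0.21 (0.08) with 62 below 0. TIFAB_KO against WT had -0.01 (-0.01) with 41 below 0. No gene of the 77 passed in these, where limma passed 0.0843%, 0.0674% and 0.0169% of tested genes in the same order. Without dKO replicate 4, 4 genes (5.19%) passed in dKO against WT, as did 2.83% of all tested genes.

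At an unadjusted p under 0.05, 4 of 77 were lower and 1 higher in miR-146a_KO (2.3% and 7.23% of tested genes). In dKO 19 were lower and 0 higher (4.36% and 9.7%), and in TIFAB_KO 0 were in either direction (5.11%). In miR-146a_KO 20 genes lay below WT in every library, against 6.4% of tested genes, and in dKO 9 did, against 3.62%. The miR-146a_KO median was -0.13 without its replicate 3 and -0.11 with total reads as a covariate. The TIFAB_KO median was -0.14 without its replicate 3 and 0.08 without its replicate 1, so its sign rests on those libraries.

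By complex, miR-146a_KO against WT had -0.19 for I, -0.08 for II, -0.15 for III, -0.30 for IV and -0.20 for V, and dKO had -0.24, -0.06, -0.15, -0.34 and -0.21. In dKO, Uqcr10 had -0.66 ± 0.18 (limma adjusted p = 0.183), Cox5b -0.49 and Atp5e -0.73. The 2 genes of each complex that limma ranked highest in TIFAB_KO against WT had values on both sides of 0. Cox6b2 had -0.47 and Sdha -0.10. Ndufb8 had 0.37, Sdhb 0.34, Ndufs7 0.33, Uqcrq 0.25, Cox5a 0.25, Uqcrc1 0.16, Atp5g2 0.15 and Atp5sl 0.12. In all of these but Ndufs7 the groups overlapped. Ndufs7 had 5.48, 5.36 and 5.53 in WT and 5.55, 5.56 and 6.26 in TIFAB_KO. Without TIFAB_KO replicate 3, Ndufs7 had 0.10, Ndufb8 0.08, Sdhb 0.10, Uqcrc1 0.01 and Uqcrq -0.08.

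dKO was then set against each single knockout. Against TIFAB_KO the median was -0.26 (0.09 over all tested genes), 61 genes were below 0 and none passed in limma (0.0337% of tested genes). Here 23 were lower and 0 higher at an unadjusted p under 0.05, against 5.93% and 12.6%, and 7 lay below every TIFAB_KO library, against 3.84%. The median was -0.10 without TIFAB_KO replicate 3, and 5 genes (6.49%) passed without dKO replicate 4, as did 2.34% of all tested genes. Against miR-146a_KO the median was -0.03 (-0.01), with -0.11 without miR-146a_KO replicate 3 and 0.03 without dKO replicate 1. Here 46 genes were below 0, none passed (0.0506%) and 0 had an unadjusted p under 0.05 in either direction (1.93%).

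The interaction, the part of dKO that the single losses do not add up to, had a median of -0.04 over the 77 genes and 0.01 over all tested genes. No gene passed, as in 0% of all tested genes, and 0 of 77 had an unadjusted p under 0.05, against 4.23%. The median was 0.13 without TIFAB_KO replicate 3 and -0.12 without TIFAB_KO replicate 1, so its direction is not fixed by these libraries.

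Most other mitochondrial lists had medians nearer to that of all genes for miR-146a loss (0.09). Complex I assembly factors had a median of 0.04 (15 genes), complex IV assembly factors 0.09 (24), tricarboxylic acid cycle genes 0.03 (17), electron carriers and coenzyme Q synthesis 0.01 (17), carriers and channels of the mitochondrial membranes -0.03 (12) and regulators of mitochondrial biogenesis 0.09 (19). In these lists no gene passed. The short lists of assembly factors had -0.10 for complex II (2), 0.30 for complex III (5, with Lyrm7) and -0.06 for complex V (3). Further genes of the chain outside the symbol rule had values below 0 in 5 of 5: Cyc1 -0.30, Ndufab1 -0.18, Usmg5 -0.38, 2010107E04Rik -0.31 and 1110001J03Rik -0.41, the last known as an ATP synthase assembly factor.

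Cytosolic ribosomal protein genes, like the respiratory chain short and abundant, were lower still, at a median of -0.49, with 77 of 78 below 0 and 18 passing lower in limma. Of all tested genes 0.733% passed in that fit. Without TIFAB_KO replicate 3 the median was -0.37 and 2 passed, as did 14 of all tested genes. Over all single libraries left out the number passing ran from 1 to 49. The 49 came without TIFAB_KO replicate 2, where 6.76% of all tested genes passed. Median transcript length was 1129 bases for the 77 genes and 1076.5 for the ribosomal protein genes, against 3389 for all tested genes with a length. After a trend on transcript length was removed, the respiratory chain median was -0.21 and that of all tested genes 0.00. Within the chain, the 39 shorter genes had a median of -0.28 and the 38 longer ones -0.20.

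**Figure D5:**
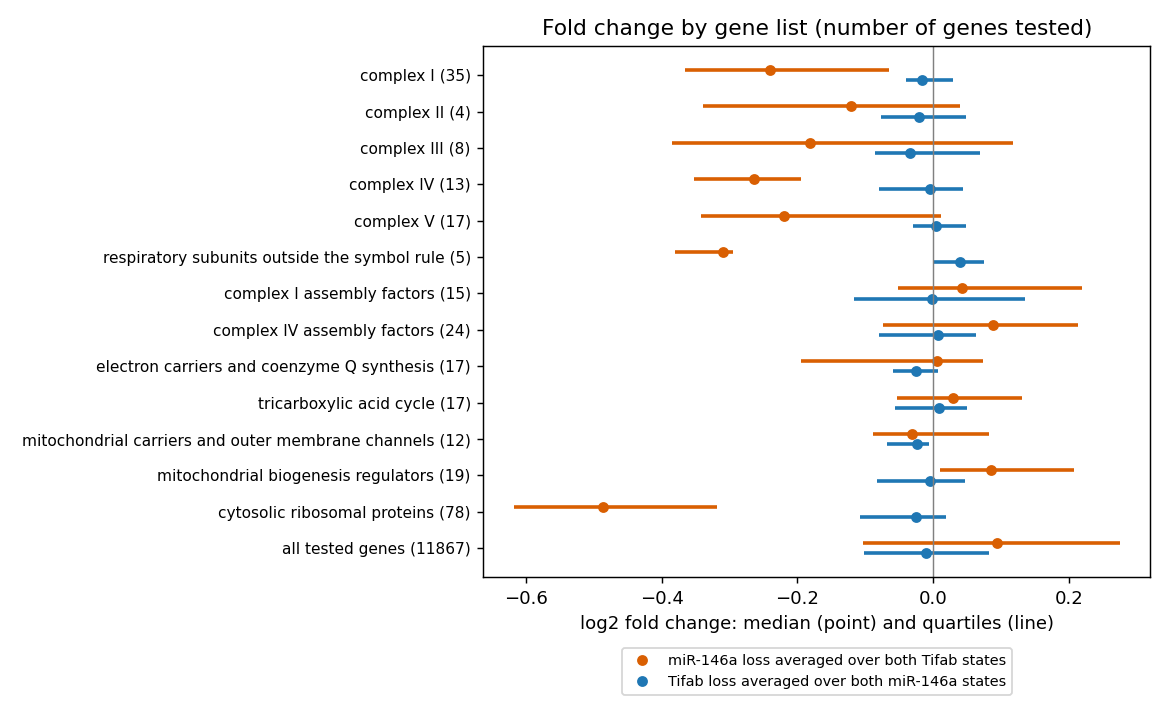
Median (point) and lower to upper quartile (line) of the log2 fold changes of each list (y axis, number of genes tested) for loss of miR-146a (orange) and of Tifab (blue). The 5 complexes and the ribosomal protein genes lie left of 0 in orange, and complex I and IV assembly factors, tricarboxylic acid cycle genes and regulators lie near the -0.03 to 0.09 range.

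Summed levels of markers of several cell types also differed between groups. The 15 megakaryocyte and platelet genes summed to 1151 to 1287 CPM in WT and 1050 to 1287 in TIFAB_KO, against 745 to 1064 in miR-146a_KO and 669 to 1082 in dKO, with 0 of the 15 at 0. The 15 granulocyte-monocyte progenitor genes summed to 9225 to 14837 CPM in WT, 17675 to 19342 in TIFAB_KO, 12603 to 16096 in miR-146a_KO and 10479 to 15433 in dKO. Monocyte, macrophage and dendritic cell genes (16) summed to 170.2 to 258 in WT, 256 to 343 in TIFAB_KO, 274 to 333 in miR-146a_KO and 227 to 700.03 in dKO. None of these genes was at 0. The 10 B-lineage genes, of cells that the lineage gate should remove, summed to 14.6 to 20.3 CPM in WT, 15.04 to 20.2 in TIFAB_KO, 26.6 to 37.2 in miR-146a_KO and 16.6 to 27.2 in dKO. Erythroid genes, with 5 haemoglobin rows at 0 reads in all libraries, summed to 2987 to 3741 in WT, 1946 to 2287 in TIFAB_KO, 2193 to 2655 in miR-146a_KO and 2133 to 3400 in dKO. The 10 genes of Sca-1-positive stem cells, also outside the gate, summed to 282 to 305 in WT, 227 to 287 in TIFAB_KO, 259.5 to 281 in miR-146a_KO and 215 to 316 in dKO. For late granulocyte, mast cell and T and NK cell genes each knockout overlapped WT by sum. Sums follow the most abundant genes. By mean log2 deviation over the tested genes of a list, some groups apart by sum overlapped. miR-146a_KO replicate 2 had 0.08 for erythroid genes (WT 0.03 to 0.37). Replicate 3 of that group had 0.14 for stem cell genes (WT 0.06 to 0.14). dKO replicate 2 had 0.19 for megakaryocyte and platelet genes (WT 0.08 to 0.26). Others stayed apart from WT. TIFAB_KO was below WT for erythroid genes (-0.34 to -0.16) and above it for granulocyte-monocyte progenitor genes (0.29 to 0.52). miR-146a_KO was below WT for megakaryocyte and platelet genes (-0.62 to -0.04) and above it for B-lineage genes (0.43 to 1.15). miR-146a_KO and dKO were above WT for monocyte, macrophage and dendritic cell genes. Some that overlapped by sum came apart: TIFAB_KO for stem cell genes (-0.21 to -0.14), and TIFAB_KO and miR-146a_KO for mast cell, basophil and eosinophil genes. The part of these cells in the respiratory chain values was not tested.

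Within groups, some genes ran against each other from library to library, a pattern chosen after the values were seen. In dKO replicates 2 and 3, Sdhd (5.74 and 5.57) and Ndufv1 (4.29 and 4.02) were at their lowest, and Uqcrb (6.38 and 6.50), Ndufs3 (5.72 and 5.82) and Atp5g3 (7.97 and 7.71) at their highest. In dKO replicate 4, Sdhd had 7.06 and Ndufv1 5.48, with Uqcrb at 5.35, Ndufs3 at 4.52 and Atp5g3 at 7.02. The 4 libraries of this 1 genotype thus ran from 5.57 to 7.06 for Sdhd, where all libraries of the study ran from 5.57 to 7.41.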

How the data were processed

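RNA of sorted LK marrow cells was amplified and sequenced, 1 library per sample. The submitters' processing notes name TopHat, featureCounts, limma and the build mm10, without versions. The authors deposited log2 CPM values for 24062 rows, in the voom form with 0.5 read added per gene and 1 per total: whole reads were recovered for 100% of values within 0.01. Total reads were 7.83 to 12.8 M, and counting error is smallest in the deepest libraries. A search by symbol found 0 rows of mitochondrially encoded genes in these values, so those genes could not be analysed here.

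The deposited log2 values of 11867 genes with a mean of at least 0 were fitted with limma 3.58.1 (R 4.3.3), 1 mean per group over all 13 libraries, variance trend, residual degrees of freedom 9. Benjamini-Hochberg adjusted p under 0.05 within a comparison was called. The first group named is compared with the second. The fit was tested on simulated data. Nothing says the samples of a group came from separate mice beyond the stated number, so p-values measure the spread between these samples.

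The genes, lists and the rule for named genes were chosen with earlier results of these data known. Named are genes that passed, the 2 smallest p per complex in each comparison against WT and each averaged one, and fixed core subunits, of which 1 is not reported here. Positions and lengths are from GENCODE M21 (mm10), copies from blastn 2.17.0. Alternatives were other filters, scalings, weights, covariates, a replicate block and leaving out libraries.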

Additional observations from a re-analysis of the deposited data

Results flagged for a closer look

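Of 48 quantities examined in the 4 dKO libraries, 3 had 1 library far from the others, where chance gives about 1 in 20. Cox4i1 had 6.44 log2 CPM in dKO replicate 4, against 4.87 to 5.06 in the other 3. The mean deviation of complex I was -0.28 in dKO replicate 1, against -0.08 to -0.05 in the others, and that of complex V was -0.24, against -0.05 to -0.03. The groups of 3 libraries are too small for this comparison. No interaction passed for any of the 77 genes.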

How the results depend on the processing

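Of 1419 values of the main results under alternatives, 1387 moved by less than the spread between replicates or by less than 1.5 times. The other 32 moved further. None of the 77 genes was called in the main fits, so no called value of theirs could reverse. Some medians changed sign, as did the interaction over all 77 genes (-0.12 to 0.13). Over all 77 genes the median for miR-146a loss ran from -0.32 (quantile normalization) to -0.15 (total reads as a covariate). Genes called for miR-146a loss numbered 1 with median centring (1.3%, against 0.742% of all tested genes), and 0 to 14 when single libraries were left out; for dKO against WT they were 0 to 4, and for dKO against TIFAB_KO 0 to 5. Same-numbered replicates had a median correlation of deviations of -0.02 over 18 pairs (-0.20 to 0.23), and other pairs ran from -0.20 to 0.27. With so few libraries this cannot exclude a pairing or a shared batch. Some codes in the column headers recur across groups under other replicate numbers, and these were not examined. The replicate block, which sets aside dKO replicate 4, gave 12 called genes for miR-146a loss (15.6%, against 7.32% of all tested genes). It gave 4 for dKO against WT (5.19%, against 2.37%) and 3 for dKO against TIFAB_KO (3.9%, against 1.23%). Its complex V median was -0.11 in dKO against miR-146a_KO. Leaving out both TIFAB_KO replicate 3 and dKO replicate 3 gave TIFAB_KO against WT -0.20 for complexes I and IV, dKO against TIFAB_KO -0.10 over all genes, and interactions of 0.011 (II), 0.082 (III) and 0.11 (V). Quantile normalization gave dKO against TIFAB_KO -0.30 (II) and -0.29 (V), and the mean in place of the median gave -0.19 for complex II in dKO against WT.

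With single libraries left out, TIFAB_KO against WT ran from -0.20 to 0.11 for complex I, -0.077 to 0.11 for II and -0.20 to 0.10 for IV. dKO against WT ran from -0.18 to 0.0025 for II and -0.21 to -0.064 for V. dKO against TIFAB_KO ran from -0.37 to -0.10 over all 77 genes, -0.46 to -0.13 for I and -0.33 to -0.033 for IV, and dKO against miR-146a_KO from -0.11 to 0.054 for V. The interaction ran from -0.12 to 0.13 over all 77 genes, -0.21 to 0.14 for I and -0.13 to 0.13 for V.

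Signs reversed in TIFAB_KO against WT for Atp5g2 (-0.067 without WT replicate 3 to 0.32 without WT replicate 1), Atp5sl (-0.16 without TIFAB_KO replicate 1 to 0.39 without TIFAB_KO replicate 2) and Uqcrq (-0.082 without TIFAB_KO replicate 3, alone or with dKO replicate 3, to 0.54 without TIFAB_KO replicate 1). They also reversed for Sdhb in dKO against WT (0.0074 without WT replicate 3) and Sdhb for Tifab loss (-0.034 without TIFAB_KO replicate 3 and dKO replicate 3). The cause was not tested. A fit to only the groups compared gives no averaged or interaction value. Depth limits the lowest genes most: Cox6a2 had 4 to 30 reads per library.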
